A study of Mus musculus with 8 samples.

Results

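Threonine dehydrogenase (Tdh) and 7 partner enzymes of threonine and glycine metabolism were followed in the epidermis of aged mice labelled Tgfa knockout (KO) or wild type (WT), Tgfa being the gene of transforming growth factor alpha, which binds and activates the EGF receptor. The 8 genes were Tdh, Gcat, Shmt1, Shmt2, Gldc, Amt, Gcsh and Dld. Tdh was picked because it stood out when Tgfa KO and WT libraries were compared in these same data, and the other 7 were picked for their place in the pathway. They are 8 of the 49315 genes counted, and all 8 were among the 19239 genes with enough counts to be tested between genotypes. RNA was sequenced from isolated back-skin epidermis, labelled as keratinocytes, with 5 Tgfa KO and 3 WT libraries, all from mice aged 22 months. The labels name no strain or allele, and they do not say which part of Tgfa the KO allele removes. The names of KO replicates 3 to 5 end in bl, and those of KO replicates 1 and 2 and of the 3 WT libraries end in br, endings whose meaning the labels leave unsaid.

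In mitochondria, Tdh oxidises threonine to an unstable keto acid, which Gcat splits with coenzyme A into glycine and acetyl-CoA. Tdh is best known from mouse embryonic stem cells, which depend on threonine breakdown to grow, and in humans the gene is an inactive pseudogene. The serine hydroxymethyltransferases Shmt1 (cytosol) and Shmt2 (mitochondria) convert serine to glycine and load a one-carbon unit on folate. The glycine cleavage system breaks glycine down in mitochondria with its P protein (Gldc), T protein (Amt), lipoate-carrying H protein (Gcsh) and L protein (Dld).

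The libraries held 5313552 to 17417500 counts in Tgfa KO and 12968728 to 18292303 counts in WT. The libraries that stood apart were KO replicates 1 and 2 and WT replicate 3. Olfactory and vomeronasal receptor genes, whose main site of use is the nose, had 4.59 counts per kb of exon in KO replicate 2, whereas the remaining KO libraries had 0.124 to 0.265, against 0.147, 0.937 and 1.85 in WT replicates 1 to 3. The nuclear RNA Malat1 took 4.88% of counts in KO replicate 1 and 6.61% in WT replicate 3, against 1.34% to 1.84% in the other 6 libraries. Levels are given as CPM, the count scaled to the library's size. Tgfa itself had 37.3 to 72.9 CPM of all counts in KO replicates 2 to 5 and 84.8 to 110.2 in WT. KO replicate 1 had 102.6, within the WT range and unlike the other KO libraries. The KO allele is not described, so this level cannot decide whether the label is right. KO replicate 1 therefore stands throughout for the library so labelled. Summed keratinocyte markers were 14920 to 34490 CPM in Tgfa KO and 16730 to 29940 CPM in WT, and none of these 8 genes was at 0 in either group.

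Tdh was the member that set the genotypes apart. Its level, in CPM scaled with TMM factors, was 11.72 in the library labelled KO replicate 1 and 6.6, 6.0, 11.41 and 12.25 in KO replicates 2 to 5, against 0.450, 0.730 and 1.17 in WT replicates 1 to 3. Every KO library lay above every WT library, and the lowest KO value, in KO replicate 3, was still well above the highest WT value. The underlying counts were 159, 38, 96, 200 and 176 in KO replicates 1 to 5, against 8, 11 and 15 in WT replicates 1 to 3. The means were 9.60 ± 3.03 CPM in Tgfa KO (SD, n = 5) and 0.783 ± 0.365 CPM in WT (SD, n = 3). The log2 fold change of KO over WT was 3.62 with an SE of 0.48 and a 95% interval of 2.55 to 4.69. These values are a description, because Tdh was chosen from this same contrast. In RNA pooled over the cells of the epidermis, more cells that hold a transcript and more of it per cell cannot be told apart.

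With single libraries left out, the Tdh log2 fold change ran from 3.28 to 4.01, a direction that its choice had fixed. Without the library labelled KO replicate 1 the log2 fold change was 3.53, and without WT replicate 3 it was 4.01. With WT replicate 3 and KO replicates 1 and 2 all left out it was 4.04. Among the libraries ending in br alone, 2 KO against 3 WT, which include those that stood apart, it was 3.53. Among all tested genes, 3.40% had every KO library above every WT library, and Tdh was the 1 of the 8 members to do so, which its choice had fixed.

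**Figure D1:**
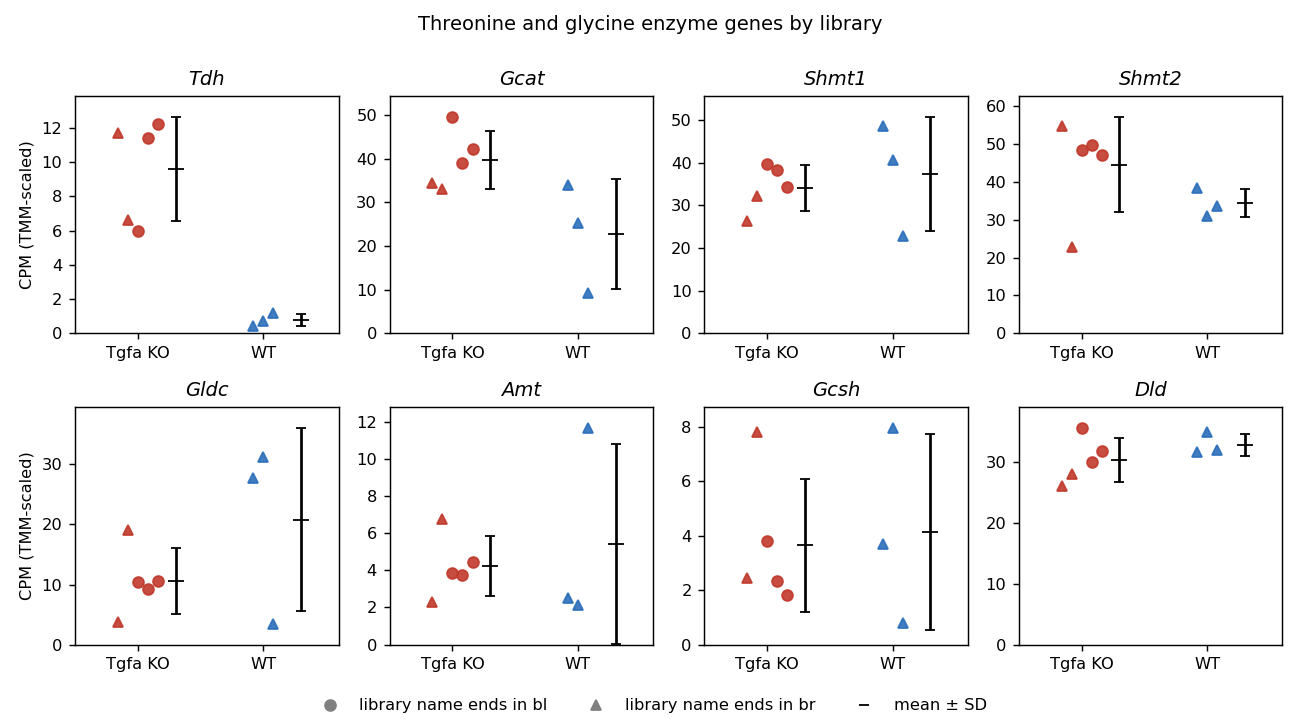
Each panel plots 1 gene's level in CPM (TMM-scaled, axis from 0) with 1 point per library, Tgfa KO left of WT, circles for names ending in bl and triangles for br, and the mean with its SD beside them. Tdh lay between 6.0 and 12.25 CPM in Tgfa KO and at or below 1.17 CPM in WT, while the groups of the other 7 genes overlapped.

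Silent genes gave a floor for these low WT levels. Had Tdh been covered only at each library's receptor-gene rate, it would have held 0.690, 12.01, 0.370, 0.490 and 0.320 counts in KO replicates 1 to 5, against 0.390, 2.45 and 4.83 in WT replicates 1 to 3. That rate amounts to 31.6% of the Tdh count in KO replicate 2 and 32.2% in WT replicate 3, and to 0.184% to 0.435% in the other 4 KO libraries. With this rate subtracted from every gene, the Tdh log2 fold change was 3.88. All 3 WT libraries therefore held more Tdh counts than their receptor-gene rate would give, though few in number.

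Tdh (ENSMUSG00000021953) lies on the minus strand of chromosome 14, from 63492347 to 63509092 on GRCm38, with 2615 exonic bases in the files. Its protein-coding model in GENCODE M21, Tdh-201, has 9 exons, 1881 bases and 373 codons. An antisense gene, Gm17232, overlaps 66 exonic bases of Tdh in 2 stretches, all of them coding in Tdh-201, and without strand information a read there fits both genes. They are shown because these are the Tdh bases whose reads are ambiguous, with capitals for the bases that Gm17232 shares, written 5′ to 3′ on the Tdh strand.
Tdh exon 3, chr14:63497598-63497640: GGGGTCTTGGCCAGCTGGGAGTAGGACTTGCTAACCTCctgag
Tdh exon 8, last bases, chr14:63493742-63493769: TGCGTGGATCCCCTCCGACAGGCCATAG
The shared bases are 2.5% of the exonic length of Tdh. Gm17232 itself held 0, 21, 3, 9 and 2 counts in KO replicates 1 to 5, against 1, 1 and 0 in WT replicates 1 to 3, far fewer than Tdh in the KO libraries other than KO replicate 2.

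The 4 tested genes beside Tdh had log2 fold changes of 0.06 to 0.53. Within 200 kb of Tdh lie 7 other genes, of which 4 were tested. Of these, 0 had every KO library above every WT library, where 3.40% of all genes tested did, so 4 genes are too few to read this. Among the untested genes, Gm15918 held 5, 6, 6, 4 and 0 counts in KO replicates 1 to 5 and 0 in each WT library. Gm21430 held 0, 6, 0, 0 and 0 counts in KO replicates 1 to 5, against 0, 2 and 0 in WT replicates 1 to 3. The lipid phosphatase family gene Mtmr9, next to Tdh, had a log2 fold change of 0.53, Blk (a B-lineage tyrosine kinase) 0.29, Xkr6 0.21 and Fam167a 0.06. In the edgeR quasi-likelihood test their Benjamini-Hochberg adjusted p ranged from 0.905 to 0.986. Xkr6, Blk, Mtmr9 and Fam167a each turned sign under at least 1 alternative processing.

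Tdh is 1 of several enzymes that can start threonine breakdown. The others are threonine aldolase (Tha1) and the serine/threonine dehydratases Sds and Sdsl, none of which had enough counts to be tested between genotypes. Per kb of exon, Tdh made up 86.45% of the summed level of these 4 genes in the library labelled KO replicate 1, 24.47% in KO replicate 2 and 92.33%, 92.23% and 93.51% in KO replicates 3 to 5, against 34.34%, 44.32% and 17.65% in WT replicates 1 to 3. KO replicate 2 fell within the WT range, and in it Sdsl held 40 counts and Sds 22, against 0 to 3 and 4 to 11 counts in the other KO libraries. At the receptor-gene rate of KO replicate 2, Sdsl would hold 6.87 counts, 17.18% of its count there, and Sds 7.78 counts, 35.35% of its count. The WT shares rest on few counts. WT replicates 1 to 3 held 8, 11 and 15 for Tdh and 5, 10 and 2 for Tha1. They held 7, 2 and 34 for Sds and 0, 1 and 9 for Sdsl. Because Tdh was chosen for its difference between KO and WT, that choice had largely fixed a higher share in KO.

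The level of Tdh over the 8 libraries was set beside every other tested gene with a mean of at least 2 CPM, by the mean absolute difference of log2 CPM after each gene was centred on its own mean. The 5 most alike of 12544 genes were Cxcr2, a neutrophil chemokine receptor, at 0.50, the Wnt ligand gene Wnt2 at 0.55, the retinol-uptake receptor gene Stra6 at 0.56, the aldehyde oxidase gene Aox4 at 0.57 and the transmembrane protease gene Tmprss11b at 0.57. The median over all these genes was 1.6. Cxcr2 had 15.99, 7.82, 8.57, 9.76 and 5.36 CPM in KO replicates 1 to 5, against 1.23, 0.790 and 2.11 CPM in WT replicates 1 to 3. Stra6 had 14 to 32.69 CPM in Tgfa KO and 2.25 to 5.71 CPM in WT. All 5 had every KO library above every WT library, which follows from choosing genes by their likeness to Tdh.

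Gcat, the ligase that takes the product of Tdh, did not pass the test. It is found on chromosome 15 (ENSMUSG00000006378, 79030874 to 79043558, plus strand). Its level was 34.34 CPM in the library labelled KO replicate 1 and 33.0, 49.46, 39.03 and 42.17 CPM in KO replicates 2 to 5, against 33.98, 25.14 and 9.14 CPM in WT replicates 1 to 3. The groups overlapped: WT replicate 1 lay above KO replicate 2, and WT replicate 3 was the lowest of all 8. The means were 39.6 ± 6.62 CPM in Tgfa KO (SD, n = 5) and 22.8 ± 12.6 CPM in WT (SD, n = 3), with a log2 fold change of 0.80 (SE 0.37, 95% interval -0.03 to 1.62, edgeR adjusted p = 0.811). Without WT replicate 3, which had the raised Malat1 and receptor-gene values, the Gcat log2 fold change was 0.41.

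Both genes of the threonine route were counted in all 8 libraries. Per kb of exon, Tdh was 50.25% of Gcat in the library labelled KO replicate 1 and 29.45%, 17.87%, 43.06% and 42.77% in KO replicates 2 to 5, against 1.94%, 4.26% and 18.88% in WT replicates 1 to 3. Gcat exceeded Tdh in all 8 libraries, and the ratio of WT replicate 3, where Gcat was low, lay inside the KO range. The higher ratios in KO restate the Tdh difference, which the choice of Tdh had fixed.

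**Figure D2:**
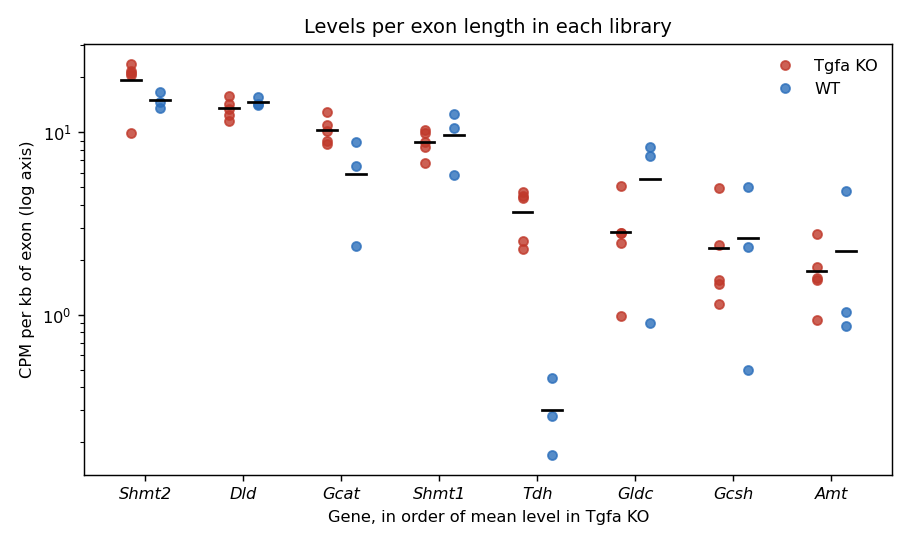
Points show CPM per kb of exon on a log axis for the 8 genes in each library, Tgfa KO left of WT, with bars at the group means, in the order of the KO means. Tdh was 5th of 8 in Tgfa KO and last in WT, where its highest library (0.448) lay below the lowest library of each other gene.

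Ordered by their mean per kb of exon in Tgfa KO, the genes ran Shmt2 (19.4 ± 5.44), Dld (13.5 ± 1.63), Gcat (10.3 ± 1.72), Shmt1 (8.80 ± 1.39), Tdh (3.67 ± 1.16), Gldc (2.83 ± 1.47), Gcsh (2.31 ± 1.55) and Amt (1.74 ± 0.669) in CPM per kb (SD, n = 5). Neighbours in that order overlapped in their library ranges, except Shmt1 and Tdh. In WT the order was Shmt2 (14.93 ± 1.604), Dld (14.6 ± 0.801), Shmt1 (9.63 ± 3.43), Gcat (5.91 ± 3.27), Gldc (5.54 ± 4.05), Gcsh (2.62 ± 2.28), Amt (2.23 ± 2.21) and Tdh (0.299 ± 0.140) in CPM per kb (SD, n = 3). There, Dld and Shmt1 did not overlap and nor did Amt and Tdh, while the other neighbours did. Shmt2 and Dld headed the order in both genotypes.

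The serine hydroxymethyltransferases did not pass the test in either direction. Shmt1 (ENSMUSG00000020534, chromosome 11, 60788104 to 60811718, minus strand) had 26.24, 32.13, 39.83, 38.34 and 34.24 CPM in KO replicates 1 to 5, against 48.75, 40.68 and 22.74 CPM in WT replicates 1 to 3. WT libraries were both the highest and the lowest. KO over WT came to -0.13 on the log2 scale (SE 0.27, 95% interval -0.73 to 0.46; adjusted p = 0.949 in edgeR). The files' exons of Shmt1 share 184 bases with Smcr8 on the other strand, whose counts of 303 to 1872 per library could enter there.

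Shmt2 (ENSMUSG00000025403, chromosome 10, 127517123 to 127522444, minus strand) had 54.76, 22.75, 48.58, 49.7 and 47.18 CPM in KO replicates 1 to 5, against 38.4, 31.09 and 33.77 CPM in WT replicates 1 to 3. In Tgfa KO, 4 of 5 libraries lay above all of WT, and KO replicate 2, the shallowest and the one with the highest receptor-gene rate, lay below all of WT. On the log2 scale the KO libraries were 0.38 above WT (SE 0.28, 95% interval -0.25 to 1.0; adjusted p = 0.901 in edgeR), and 0.45 without WT replicate 3 and KO replicates 1 and 2 (adjusted p = 0.0709). The ratio of Shmt2 to Shmt1 per kb of exon was 3.52, 1.19, 2.06, 2.18 and 2.32 in KO replicates 1 to 5, against 1.33, 1.29 and 2.501 in WT replicates 1 to 3. Shmt2, the mitochondrial enzyme, exceeded Shmt1 in all 8 libraries, and the ratios of the genotypes overlapped. Exons of Shmt2 share 30 bases, 1.3% of its length, with Ndufa4l2 on the other strand. Reads of Ndufa4l2, which had 265 to 3881 counts per library, could enter there.

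Of the glycine cleavage genes, Gldc, Amt and Gcsh spread widely among the WT libraries, and Dld did not. Gldc, the glycine decarboxylase (ENSMUSG00000024827, chromosome 19, 30098449 to 30175418, minus strand), had 3.69, 19.1, 10.5, 9.30 and 10.58 CPM in KO replicates 1 to 5, against 27.76, 31.29 and 3.36 CPM in WT replicates 1 to 3. WT replicates 1 and 2 were the highest of the 8, and WT replicate 3 was the lowest, just under the library labelled KO replicate 1. The means were 10.6 ± 5.52 CPM in Tgfa KO (SD, n = 5) and 20.8 ± 15.2 CPM in WT (SD, n = 3), with a log2 fold change of -0.98 (SE 0.64, 95% interval -2.40 to 0.43, edgeR adjusted p = 0.881).

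The call for Gldc depended on the libraries that stood apart. Without WT replicate 3 and KO replicates 1 and 2, its log2 fold change was -1.57 (edgeR adjusted p = 0.00179), with 10.5, 9.30 and 10.58 CPM in the 3 KO libraries left, against 27.76 and 31.29 CPM in the 2 WT libraries left. In that reduced set the KO libraries all end in bl and the WT libraries in br, so genotype and label ending cannot be told apart, and 10.6% of 17804 genes passed the threshold. Limma voom with sample quality weights, which gave those 3 libraries weights of 0.284 to 0.366 against 1.47 to 2.26 for the other 5, had -1.35 (adjusted p = 0.0476), with 6.46% of all genes past the threshold.

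The other cleavage genes did not pass either. Amt (ENSMUSG00000032607, chromosome 9, 108296853 to 108302302, plus strand) had 2.28 to 6.77 CPM in Tgfa KO with a median of 3.88, against 2.52, 2.12 and 11.65 CPM in WT replicates 1 to 3. WT replicate 3 alone was above every KO library, and without it the log2 fold change turned to 0.84, against -0.36 with all libraries (SE 0.60, edgeR adjusted p = 0.937). Gcsh (ENSMUSG00000034424, chromosome 8, 116981810 to 116993537, minus strand) had 1.81 to 7.82 CPM in Tgfa KO with a median of 2.43, against 3.69, 7.94 and 0.780 CPM in WT replicates 1 to 3. Its log2 fold change was -0.20 (SE 0.72, adjusted p = 0.967), and it turned to 0.56 without WT replicate 2. Amt and Gcsh had 32 to 149 and 10 to 120 counts in WT replicates 2 and 3, so their levels rest on few reads.

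Dld, the dehydrogenase that the cleavage system shares with the pyruvate and oxoglutarate dehydrogenase complexes, was the steadiest member (ENSMUSG00000020664, chromosome 12, 31331564 to 31351437, minus strand). It had 25.94, 27.96, 35.45, 30.01 and 31.8 CPM in KO replicates 1 to 5, against 31.62, 34.86 and 31.89 CPM in WT replicates 1 to 3. KO over WT came to -0.12 on the log2 scale (SE 0.18, 95% interval -0.53 to 0.30; adjusted p = 0.936 in edgeR), with the narrowest interval of the 8 genes. The ratio of Gldc to Dld per kb of exon was 0.0848, 0.408, 0.177, 0.185 and 0.199 in KO replicates 1 to 5, against 0.524, 0.536 and 0.0629 in WT replicates 1 to 3. It too was highest in WT replicates 1 and 2 and lowest in WT replicate 3.

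Counted together, 0 of the 8 members passed a Benjamini-Hochberg adjusted p of 0.05 in the edgeR test of KO against WT, where 0.0052% of the 19239 genes did. At an unadjusted p under 0.05 there was 1 member, Tdh, against 6.28% of all genes, and its choice had fixed that. DESeq2 called 1 member, again Tdh, where it called 0.319% of all genes, and the edgeR fit without a filter on low counts also called Tdh, with 0.0202% of all genes. Limma voom called 0 members and 0% of genes. Of the 7 partners, 2 had a positive and 5 a negative log2 fold change, with a median of -0.13, against 61.9% positive and a median of 0.16 over all genes tested. In simulated counts with each gene's estimated spread, the edgeR test recovered 0 of 100 genes changed 2-fold and 62 of 100 changed 4-fold, with 6 false calls. The changed genes had a mean above 5 CPM, which Amt and Gcsh lie below. Libraries were drawn independently, without the deviations of WT replicate 3 and KO replicates 1 and 2. The simulation therefore cannot settle which changes were detectable in the partners. DESeq2 recovered 17 of 100 genes changed 2-fold and 86 of 100 changed 4-fold in the same simulation, with 73 false calls.

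**Figure D3:**
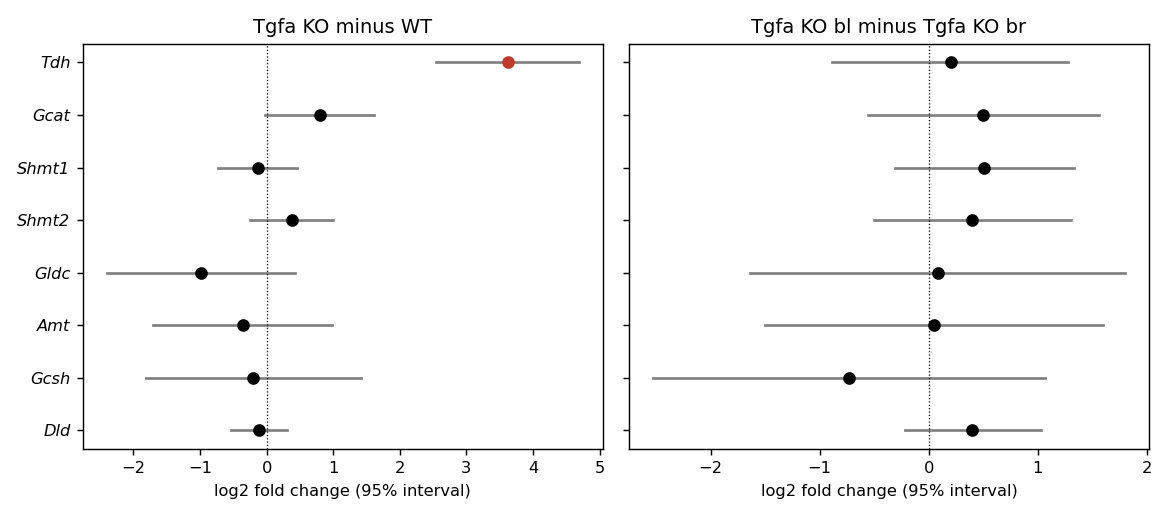
Points show edgeR log2 fold changes with 95% intervals for the 8 genes, on the left for Tgfa KO minus WT and on the right for KO libraries ending in bl minus those ending in br. Tdh (red, the gene chosen from the left contrast) was at 3.62 on the left and 0.20 on the right, and the intervals of the other 7 genes held 0 in both panels.

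Within Tgfa KO, the libraries ending in bl were compared with those ending in br, a contrast that was not used to choose the members. The 2 KO libraries ending in br are KO replicates 1 and 2, which both stood apart. The ending and what set these libraries apart therefore cannot be told apart here. Tdh averaged 9.89 CPM in the 3 KO libraries ending in bl and 9.16 CPM in the 2 ending in br, a log2 difference of 0.20 (SE 0.50, 95% interval -0.89 to 1.28, edgeR adjusted p = 0.843). Among the 8 members 0 passed the threshold, where 0.00426% of 23496 genes did, while 22.4% of genes had an unadjusted p under 0.05. Gcat averaged 43.6 CPM in bl and 33.7 CPM in br (log2 difference 0.50, adjusted p = 0.556), Shmt1 37.5 CPM in bl and 29.2 CPM in br (log2 difference 0.51, adjusted p = 0.430), and Dld 32.4 CPM in bl and 26.95 CPM in br (log2 difference 0.40, adjusted p = 0.408). Shmt2 averaged 48.5 CPM in bl and 38.8 CPM in br, a log2 difference of 0.40 (adjusted p = 0.586). Without the library labelled KO replicate 1, KO replicate 2 alone stands for br, and that difference was 1.19 (adjusted p = 0.0362), with 14.2% of genes past the threshold. Gldc, Amt and Gcsh had differences of 0.08, 0.05 and -0.73, with adjusted p of 0.962, 0.973 and 0.625. In this contrast the median was -0.22 over the 23496 genes and 0.02 over the 19239 genes also tested between genotypes.

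The rest of the pathway was described with 75 genes in 8 lists, of which 64 were tested. In the edgeR test of KO against WT, 0 passed in either direction, 42 had a positive and 22 a negative log2 fold change, and the median was 0.18, against 0.16 over all genes tested. An unadjusted p under 0.05 was found for 4 of the 64, against 6.28% of all genes. Likewise 4 of 64 had every KO library above every WT library, against 3.40% of all genes, and 0 had every KO library below, against 1.75%. Named after their values were seen, those 4 were Psph, Aldh1l1, Slc7a11 and Ahcy.

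Serine synthesis feeds the Shmt enzymes. Its genes Phgdh, Psat1 and Psph were listed with the serine racemase Srr, and these 4 genes had a median log2 fold change of 0.49. Psph, the phosphatase of the last step to serine, had 7.30, 16.33, 9.38, 9.53 and 9.95 CPM in KO replicates 1 to 5, against 3.13, 3.31 and 3.60 CPM in WT replicates 1 to 3. Every KO library was above every WT library, yet the log2 fold change of 1.64 (SE 0.33, 95% interval 0.92 to 2.37) had an edgeR adjusted p of 0.330. It was 1.55 without WT replicate 3 and KO replicates 1 and 2 (adjusted p = 0.00697). In that reduced set 10.6% of 17804 genes passed, and genotype coincided with the label ending. Phgdh, which commits glycolytic carbon to serine, had 22.11 to 36.95 CPM in Tgfa KO and 21.21, 22.42 and 7.50 CPM in WT (log2 fold change 0.74, adjusted p = 0.818). The transaminase Psat1 had 64.43 to 108.48 CPM in Tgfa KO and 62.37 to 89.5 CPM in WT (log2 fold change 0.24, adjusted p = 0.930), and the serine racemase Srr 11.63 to 15.8 CPM in Tgfa KO and 11.05 to 14.83 CPM in WT (log2 fold change 0.03, adjusted p = 0.986).

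Aldh1l1, a cytosolic enzyme that oxidises formyl-folate, had 4.42, 13.72, 2.5, 4.05 and 3.97 CPM in KO replicates 1 to 5, against 1.57, 1.12 and 1.64 CPM in WT replicates 1 to 3 (log2 fold change 1.97, SE 0.62, edgeR adjusted p = 0.581). Its 18 tested folate and one-carbon companions, itself included, had a median of 0.10, with 13 positive and 5 negative. Slc7a11, the cystine and glutamate exchanger and a target of the stress factor Atf4, had 3.08 to 7.64 CPM in Tgfa KO and 0.780 to 2.45 CPM in WT (1.59, adjusted p = 0.630). Atf4 itself had 271.74, 85.45, 115.61, 94.6 and 92.0 CPM in KO replicates 1 to 5, against 198.71, 165.3 and 163.9 CPM in WT replicates 1 to 3. The library labelled KO replicate 1 was the highest of the 8 and the other 4 KO libraries were below all of WT. The Atf4 log2 fold change was -0.42 (adjusted p = 0.929) with all libraries and -0.86 (adjusted p = 0.149) without that one, and the 7 genes of the Atf4 list had a median of 0.21.

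Ahcy, which clears S-adenosylhomocysteine after methyl transfer, had 10.47, 11.46, 16.94, 16.95 and 12.11 CPM in KO replicates 1 to 5, against 8.62, 8.0 and 6.96 CPM in WT replicates 1 to 3 (log2 fold change 0.79, SE 0.26, edgeR adjusted p = 0.627). The 6 tested genes of the methionine cycle had a median of -0.09, 2 positive and 4 negative. With sample quality weights, limma voom called 4 of the 64 genes, where it called 6.46% of all genes, so the list was called at about the rate of all genes. In that fit Psph and Ahcy were higher and Atf4 and the amino acid carrier gene Slc38a1 were lower in Tgfa KO.

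The remaining lists lay near the median of all genes. Tested genes of lipoic acid attachment and the other Dld complexes numbered 12, with a median of 0.22 and 8 positive, and those of glycine use 4, with a median of 0.07 and 2 positive. The 10 tested carriers of glycine, serine and threonine had a median of 0.10, with 5 positive and 5 negative. The threonyl-tRNA ligases, which use threonine for protein synthesis, had log2 fold changes of 0.17 (Tars), 0.31 (Tars2) and 0.85 (Tarsl2), with edgeR adjusted p of 0.836 to 0.936.

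**Figure D4:**
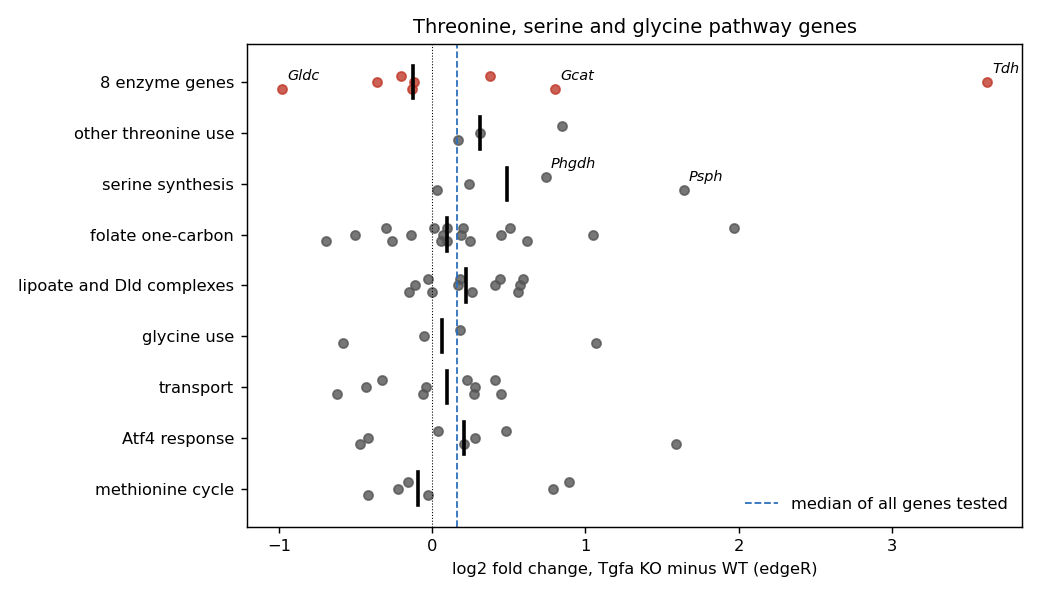
Each point is the edgeR log2 fold change, Tgfa KO minus WT, of 1 tested gene, by list, with a black bar at each list's median and a dashed line at the median of all genes tested (0.16). The medians of the 8 lists below the top row ran between -0.09 and 0.49, and the points farthest to the right were Tdh at 3.62, Aldh1l1 at 1.97 and Psph at 1.64.

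The levels of proliferation genes and of markers of other cell types were set beside Tdh. The summed level of 6 proliferation genes was 250.4 to 584.6 CPM in Tgfa KO and 123.5 to 219.5 CPM in WT, with every KO library above every WT library, and 0 of the 6 passed the edgeR test. Among them Mki67 had a log2 fold change of 1.45 (adjusted p = 0.580) and Top2a 1.19 (adjusted p = 0.538). Singly, these were the 2 genes of the list with every KO library above every WT library, where 3.40% of all genes tested did so. Cdk1 (log2 fold change 1.41), Ccnb1 (1.35), Mcm2 (0.58) and Pcna (0.06) overlapped between genotypes. Summed T cell markers (6 genes) were 26.3 to 89.9 CPM in Tgfa KO and 30.4 to 57.3 CPM in WT, with overlap. Langerhans cell markers (6 genes) summed to 747.99, 384.68, 357.02, 448.58 and 197.35 CPM in KO replicates 1 to 5, against 532.81, 616.09 and 770.43 CPM in WT replicates 1 to 3. All KO libraries but the library labelled KO replicate 1 lay below every WT library. Of these 6 genes, 4 had a negative log2 fold change and 2 a positive one (Itgax 0.49 and Csf1r 0.19), and 0 passed the edgeR test. Sebocyte markers (7 genes) were 463.0 to 699.5 CPM in Tgfa KO and 554.2 to 752.6 CPM in WT. Scd1 (log2 fold change -0.29) made up most of that sum, with 642.02 of 657.02 CPM in WT replicate 1. The 6 tested sebocyte genes had a median of 1.02, with 5 positive and 1 negative, and 0 passed the edgeR test. Hair shaft markers (7 genes) were 7.30 to 46.83 CPM in Tgfa KO and 13.21 to 14.5 CPM in WT. Fibroblast markers (6 genes) were 3.94 to 73.98 CPM in Tgfa KO and 34.09 to 39.63 CPM in WT, and melanocyte markers (5 genes) 7.89 to 23.1 CPM in Tgfa KO and 8.13 to 18.3 CPM in WT. Endothelial markers (5 genes) were 2.37 to 60.4 CPM in Tgfa KO and 1.119 to 11.02 CPM in WT, adipocyte markers (5 genes) 1.94 to 38.4 CPM in Tgfa KO and 2.35 to 6.72 CPM in WT, and skeletal muscle markers (5 genes) 0.500 to 32.5 CPM in Tgfa KO and 1.96 to 10.5 CPM in WT. With KO replicate 1 included, the ranges of all these cell type lists overlapped between genotypes. No marker was at 0 in all libraries of a group, and the part of these cells or of proliferation in the Tdh level was not tested. The highest endothelial, adipocyte and muscle values were those of KO replicate 2.

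**Figure D5:**
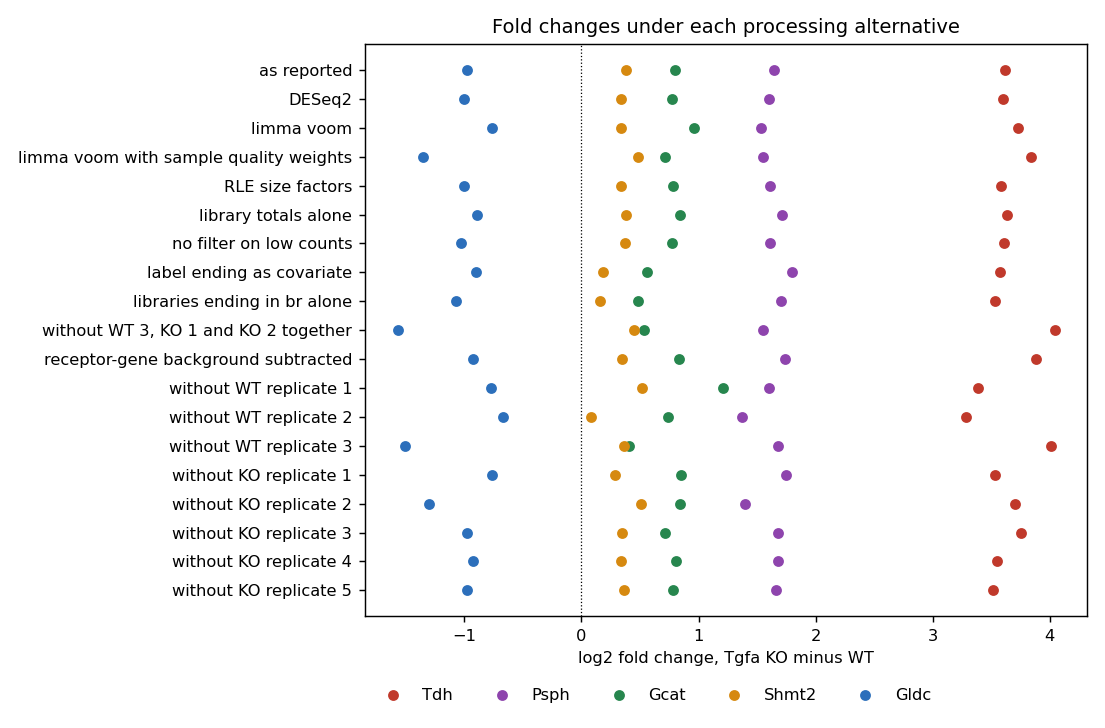
Each row is a way of processing the data and each point a log2 fold change, Tgfa KO minus WT, for Tdh, Psph, Gcat, Shmt2 and Gldc. Tdh ran between 3.28 and 4.04, Psph between 1.37 and 1.80, Gcat between 0.41 and 1.21, Shmt2 between 0.08 and 0.52 and Gldc between -1.57 and -0.67, with no change of sign among these 5 genes.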

How the data were processed

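For each library the authors deposited raw counts of reads over each gene's exons, with no scaling. The submitters' processing notes name STAR 2.5.2b, Trimmomatic 0.36 and featureCounts (Subread 1.5.2), and the builds GRCm38 and GRCh38. The strand setting, the handling of multi-mapping reads and other counting settings are not given in these sources. Of 49315 gene identifiers, 48970 matched GENCODE M21, which gave the symbols, and 91.4% had the same start and end. Coordinates are on GRCm38. Counting error alone limits low counts, so no interval is given for single counts.

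The members and gene lists were chosen with earlier results of these data known. Groups come from the genotype label, and replicate numbers follow the order of deposition and pair nothing. Separate animals are not stated, and p-values therefore cover the spread among these libraries, which may be technical. Every pair of libraries differed beyond sampling noise, the closest being KO replicates 3 and 4 (chi-square per gene 14.98).

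All genes kept by filterByExpr were fitted in edgeR 4.0.16 (R 4.3.3; TMM, quasi-likelihood test with robust estimation, Benjamini-Hochberg threshold 0.05), with genotype as the 1 factor. KO bl against KO br came from a fit of 3 groups. The biological coefficient of variation was 63.7%. CPM used the library sizes of tested genes times TMM factors, and levels between genes are CPM per kb of exon, in place of the TPM foreseen in the rule for named genes. That rule covers all members, up to 4 genes of each list, tested genes within 200 kb of Tdh and the 5 genes most like it; where no list gene passed, only genes that a result turned on are named. Alternatives were DESeq2 1.42.0, limma 3.58.1 voom with and without sample quality weights, RLE or library totals, no filter, the label ending as covariate, libraries ending in br alone, WT replicate 3 with KO replicates 1 and 2 left out, receptor-gene rate subtracted, a threshold of 0.1, and each library left out. The tests were tried on simulated counts with 200 changed genes.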

Additional observations from a re-analysis of the deposited data

Results flagged for a closer look

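Shmt2 in KO replicate 2, at 22.75 CPM, stood apart from the other 4 KO libraries: its gap to the nearest of them was 0.763 of the whole KO range, above Dixon's critical value of 0.71 for 5 samples. Among the 8 members it was the 1 such library, and chance alone marks about 1 in 20 groups. KO replicate 2 was the shallowest library, with 131 Shmt2 counts, and had the highest receptor-gene rate, which corresponds to 8.08% of those counts. The part of either in the low value was not tested.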

How the results depend on the processing

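No paired analysis was possible because the labels give no replicate numbers. The threshold of 0.1 cannot move a fold change. Under the other alternatives Tdh ran between 3.28 and 4.04, a direction that its choice had fixed, and Gcat, Shmt2, Gldc, Dld, Psph, Phgdh, Tars2, Tarsl2, Aldh1l1, Slc7a11 and Ahcy kept theirs. With all libraries, 0 members and 0 pathway genes passed for KO against WT. DESeq2 called 1 member (Tdh) and 1 pathway gene (Psph), with 0.319% of all genes called. The edgeR fit without a count filter called 1 member (Tdh), with 0.0202% of all genes. Voom with sample quality weights called 2 members (Tdh and Gldc) and 4 of 64 pathway genes, with 6.46% of all genes. Without WT replicate 3 and KO replicates 1 and 2 there were 2 members (Tdh and Gldc) and 9 pathway genes (Ahcy, Atf4, Fpgs, Mat2a, Psph, Slc36a1, Slc38a1, Slc38a2 and Slc7a5) of 64, with 10.6% of all genes called, and genotype coincides there with the name ending. Leaving out each library in turn gave 0 to 0 members and 0 to 0 pathway genes for KO against WT, and 0 to 1 members for KO bl against KO br. The cause of these differences was not tested.

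Signs turned as follows for KO against WT. Amt was 0.02 with voom, 0.62 with sample quality weights and 0.76 without the 3 libraries. Gcsh was 0.28 with the label ending as covariate and 0.13 in br libraries alone, Psat1 -0.09 and -0.15, Mtmr9 -0.04 and -0.11, Atf4 0.02 and 0.01, and Slc38a1 0.48 and 0.36. Srr was -0.02 with DESeq2, -0.01 with RLE and -0.01 in br libraries alone. Tars was -0.02 with weights and -0.14 without the 3 libraries. Blk was -1.64 with voom and -2.41 with weights, and Xkr6 -0.12, -0.08 and -0.01 with voom, weights and the 3 libraries left out. For KO bl against KO br, Gldc and Amt were -0.16 and -0.16 with DESeq2, -0.16 and -0.17 with RLE, -0.14 and -0.10 with library totals, -0.03 and -0.04 without a filter, and -0.24 and -0.04 with the receptor-gene rate subtracted.

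With single libraries left out, KO against WT ranged from -0.40 to 0.12 for Shmt1, -1.13 to 0.84 for Amt, -0.71 to 0.56 for Gcsh, -0.34 to 0.14 for Srr, -0.12 to 0.27 for Tars, -0.13 to 0.64 for Blk, -0.63 to 0.86 for Fam167a and -0.71 to 0.98 for Xkr6. KO bl against KO br ranged from -0.24 to 0.69 for Tdh, -0.17 to 1.19 for Shmt2, -0.81 to 1.46 for Gldc, -0.65 to 0.82 for Amt and -1.45 to 0.14 for Gcsh. Where this left 1 library ending in br, that library was assumed to vary like the other groups. Scaling moved the median of all genes from 0.16 (TMM) to 0.12 (RLE) or 0.20 (library totals) for KO against WT, and from -0.22 to -0.39 or -0.19 for KO bl against KO br. Depth limits Tdh in WT (8 to 15 counts), and Amt and Gcsh in several libraries.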
